A study of Mus musculus with 12 samples.

Results

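The Hox genes of mouse were followed in full-thickness colon, where their order along the body axis can serve to compare the position of the tissue between libraries. All genes whose symbol is Hox, a cluster letter from a to d and a paralogue number were taken, which gave 39 of the 27179 genes in the expression table. The rule uses symbols and no measured value. Of the 39 genes, 29 reached 0.5 TPM (a length-scaled share of all transcripts in a library) in at least 5 of the 12 libraries and were tested. The other 10 are Hoxb1, Hoxc5, Hoxc6, Hoxc8, Hoxc9, Hoxc10, Hoxc11, Hoxc12, Hoxc13 and Hoxd1.

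The study asks, by its title, how enteric neurons regrow into the gut after birth and what glia contribute. Every mouse had a laparotomy and a microinjection of diphtheria toxin with India ink into the muscle layer of the colon, and the inked piece was sequenced as polyadenylated RNA. The 5 Cre-negative libraries came from littermates of genotype R26-iDTR, which carry the inducible toxin receptor at the Rosa26 locus without a Cre to switch it on. The 7 Cre-positive libraries came from BAF53b-Cre::R26-iDTR mice, in which Cre driven by the neuronal gene BAF53b (Actl6b) switches the receptor on, so that the toxin can kill those cells. Both groups thus share the receptor allele, the surgery, the toxin and the ink. The labels give no age, sex, time after injection or distance along the colon, and do not say whether each library is a separate mouse. P-values therefore measure the spread between these libraries.

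Hox proteins are homeodomain transcription factors that lie in 4 genomic clusters. Along each cluster the genes with higher paralogue numbers are used later and further towards the tail, and adult gut muscle, connective tissue, neurons and epithelium keep part of that pattern. The paralogue 13 genes mark the hindgut and its derivatives, whereas low-numbered genes are known from the hindbrain, the neural crest and more anterior gut.

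Promoter sequences are shown for Hoxd13, Hoxd11, Hoxd10 and Hoxd9, whose lowest libraries were the same 3, and for Hoxa13, a paralogue of Hoxd13 whose level did not follow it. Each is the 250 bases before the annotated start, 5′ to 3′ on the strand of the gene, from RefSeq on GRCm38.p6. Capitals mark each CG dinucleotide, the site of DNA methylation in mammals. RefSeq promoter entries were matched for 22 of the 39 genes, and Hoxd11 has 2 entries, of which the one nearer the gene's 3′ end is shown. The Hoxd13 window is chr2:74667975-74668224, Hoxd11 chr2:74682073-74682322, Hoxd10 chr2:74691641-74691890 and Hoxd9 chr2:74697513-74697762, all on the plus strand. The Hoxa13 window is chr6:52260881-52261130 on the minus strand.
Hoxd13: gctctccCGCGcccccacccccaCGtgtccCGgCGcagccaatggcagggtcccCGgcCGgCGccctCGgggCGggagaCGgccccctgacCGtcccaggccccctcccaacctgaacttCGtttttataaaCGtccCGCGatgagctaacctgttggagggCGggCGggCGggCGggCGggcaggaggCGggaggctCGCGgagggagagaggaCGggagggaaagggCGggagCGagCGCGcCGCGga
Hoxd11: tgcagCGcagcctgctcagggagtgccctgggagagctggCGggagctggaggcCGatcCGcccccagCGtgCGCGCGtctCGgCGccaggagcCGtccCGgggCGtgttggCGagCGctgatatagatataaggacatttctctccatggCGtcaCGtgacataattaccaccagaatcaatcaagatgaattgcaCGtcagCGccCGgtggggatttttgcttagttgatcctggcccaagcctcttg
Hoxd10: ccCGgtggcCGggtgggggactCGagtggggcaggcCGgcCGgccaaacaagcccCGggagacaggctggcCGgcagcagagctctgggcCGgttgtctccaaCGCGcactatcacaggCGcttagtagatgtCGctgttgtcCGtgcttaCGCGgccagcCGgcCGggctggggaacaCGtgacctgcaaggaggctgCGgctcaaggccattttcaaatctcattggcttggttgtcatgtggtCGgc
Hoxd9: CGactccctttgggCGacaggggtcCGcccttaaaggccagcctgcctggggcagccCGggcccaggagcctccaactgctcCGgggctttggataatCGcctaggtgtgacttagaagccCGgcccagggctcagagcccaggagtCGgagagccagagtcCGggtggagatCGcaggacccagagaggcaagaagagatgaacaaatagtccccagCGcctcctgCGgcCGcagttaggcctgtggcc
Hoxa13: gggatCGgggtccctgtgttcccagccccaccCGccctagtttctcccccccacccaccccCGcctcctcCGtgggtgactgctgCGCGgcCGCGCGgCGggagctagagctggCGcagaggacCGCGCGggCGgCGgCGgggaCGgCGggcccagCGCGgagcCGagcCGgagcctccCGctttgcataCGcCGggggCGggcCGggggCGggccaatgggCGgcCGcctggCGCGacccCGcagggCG

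The Hoxd13 and Hoxa13 windows are the richest in CG of these 5, with 31 and 35 CG dinucleotides and a GC content of 74.4% and 80.0%. The Hoxd10 window holds 20, the Hoxd11 window shown 20 and the Hoxd9 window 13. The other Hoxd11 entry, chr2:74679308-74679557, holds 2 and has a GC content of 44.8%. Over all 32851 RefSeq promoter windows of this length the median was 6 CG dinucleotides and 52.4% GC. The windows were searched on both strands for TATAAA, a common core promoter string, and for TGATNNAT, a simplified form of the site bound by Hox proteins with Pbx partners. TATAAA stood in the Hoxd13 window, where matches on both strands overlap at 126 and 124 bases before the start. TGATNNAT stood in the Hoxd11 window shown, at 73 bases before the start. Neither string is in the Hoxd10, Hoxd9 or Hoxa13 windows or in the other Hoxd11 entry. Of all windows, 12.4% hold TATAAA and 7.68% hold TGATNNAT, so these matches are a description of the letters and no more.

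Recovered sequencing depth was 13.4 to 26.9 M reads per library. The shallowest library, Cre-positive 1, also had the highest mitochondrial share of reads, 18.7% against 3.56% to 10.4% in the other 11, and stood apart for many Hox genes. Neuronal markers were depleted in the Cre-positive group. The summed TPM of 7 enteric neuron markers was 60.3 to 153 in Cre-negative and 11.6 to 26.3 in Cre-positive libraries, and all 7 markers passed as lower. None of 10 smooth muscle, 10 epithelial, 7 fibroblast or 3 glial markers passed. In pieces of whole tissue, fewer cells of a type and less RNA per cell cannot be told apart.

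In every library paralogues 9 to 13, the posterior genes, made up most of the Hox signal. Summed over the 39 genes, Hox RNA came to 912 ± 101 TPM (SD, n = 5) in Cre-negative and 919 ± 101 TPM (SD, n = 7) in Cre-positive libraries. Paralogues 9 to 13 held 83.2% ± 2.15 of it in Cre-negative and 81.6% ± 8.28 in Cre-positive libraries, with Cre-positive 1 lowest at 65.6%. Paralogues 5 to 8 held 12% ± 1.52 and 13.6% ± 6.59, and paralogues 1 to 4 held 4.75% ± 0.855 and 4.81% ± 1.80. The ranges of the groups overlapped for all 3 classes. Hoxb13 alone held 40.4% to 63.3% of the Hox sum, so much of the posterior share was that of 1 gene. Without Hoxb13, paralogues 9 to 13 came to 181 to 347 TPM. In Cre-positive 1 they came to 210 TPM without it, under the 222 TPM of paralogues 5 to 8.

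**Figure D1:**
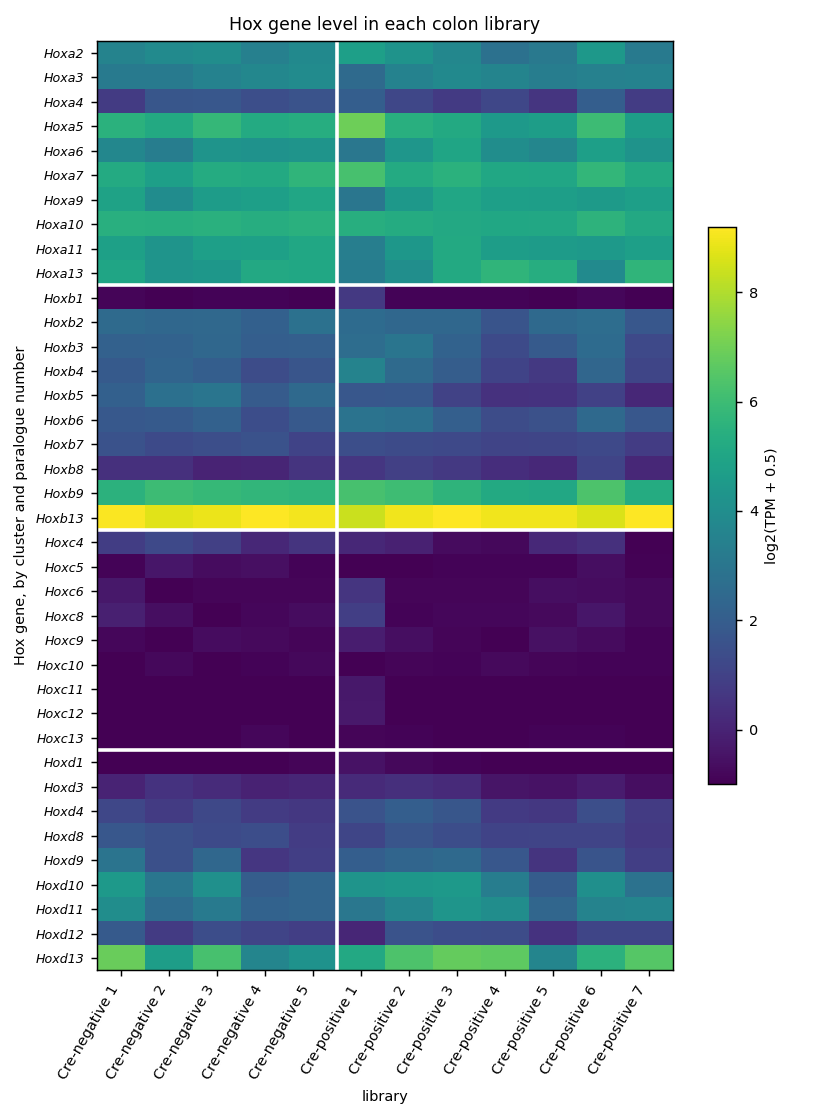
Each row is a Hox gene, ordered by cluster and paralogue number, each column is a library, and the colour gives log2(TPM + 0.5). Hoxb13 is the brightest row in all 12 libraries (337 to 587 TPM), and the Hoxc rows are dark throughout.

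The clusters contributed unequally. The 10 Hoxb genes (chromosome 11) summed to 448 to 652 TPM, of which Hoxb13 alone gave 337 to 587 TPM, and the 11 Hoxa genes (chromosome 6) to 193 to 309.5 TPM spread over several members. The 9 Hoxd genes (chromosome 2) ranged from 25.0 to 169 TPM. The 9 Hoxc genes (chromosome 15) summed to 0.281 to 3.93 TPM. Only Hoxc4 of that cluster was abundant enough to be tested, and Cre-positive 1 held the highest Hoxc sum. These 6 genes were at 10 TPM or more in every library: Hoxa5, Hoxa7, Hoxa10, Hoxb9, Hoxb13 and Hoxd13.

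Between the groups, 1 of the 29 tested Hox genes passed as lower in Cre-positive libraries, Hoxb5, and 0 passed as higher. The threshold was an adjusted p under 0.05 in limma over all 16164 genes tested, of which 1.43% passed, 1.01% as lower and 0.421% as higher. A single call in 29 is close to that background and is no result about the Hox genes as a set. The limma p without adjustment was under 0.05 for 2 members, Hoxb5 and Hoxc4, and for 11.8% of all genes. Hoxb5 was also the only member whose groups did not overlap, against 2.88% of all genes tested (1.55% with Cre-positive lower and 1.33% with it higher). The median log2 fold change of the 29 genes was -0.07, and that of all genes tested was 0.03.

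**Figure D2:**
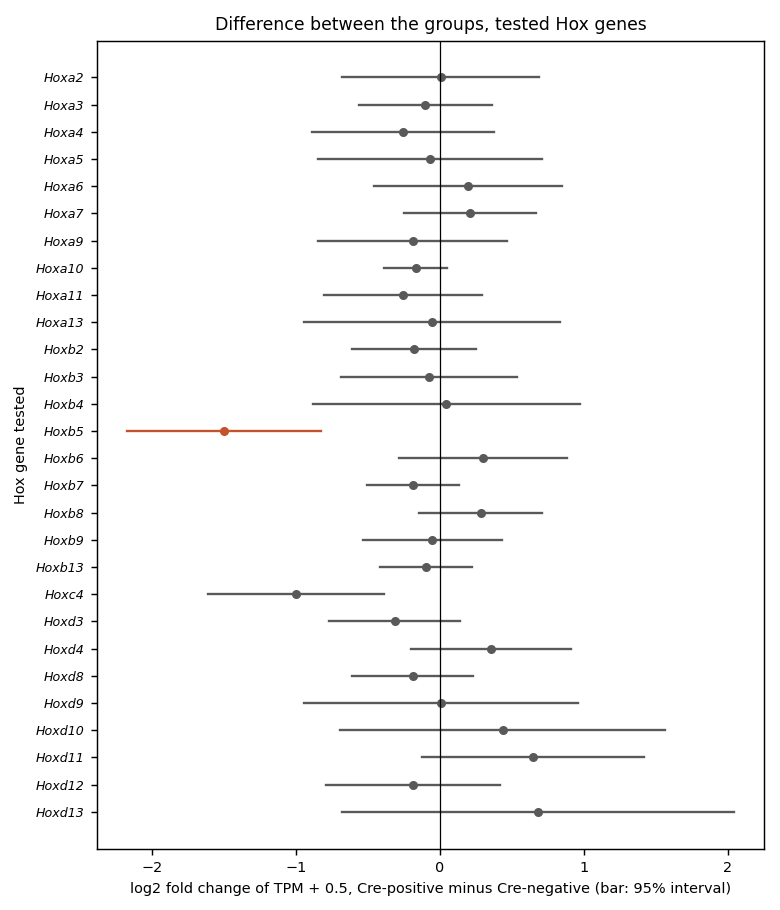
Points are log2 fold changes of TPM + 0.5, Cre-positive minus Cre-negative, for the tested genes shown, and bars are 95% intervals from limma. Hoxb5 (coloured) is the one gene that passed, at -1.50, and the Hoxd13 interval is the widest, from -0.68 to 2.05.

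Hoxb5 lies at chr11:96303336-96306121 (mm10, plus strand) and is known from the vagal neural crest, which supplies most enteric neurons, where it acts on the receptor gene Ret. Its TPM was 3.85, 6.34, 7.36, 3.27 and 5.05 in Cre-negative libraries 1 to 5. In the 7 Cre-positive libraries it was 0.593 at the lowest, 1.47 at the median and 3.02 at the highest. All Cre-positive libraries lay below all Cre-negative ones, and Cre-positive 7, 4 and 5 were the lowest. The means were 5.17 ± 1.70 (SD, n = 5) and 1.62 ± 0.983 TPM (SD, n = 7), resting on 601 and 244 recovered reads in all. The log2 fold change was -1.50 with a 95% interval of -2.2 to -0.83 and a limma adjusted p of 0.0295.

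The Hoxb5 call is close to the threshold. Leaving out Cre-negative 1, 2, 3 or 5 or Cre-positive 4, 5, 6 or 7 ended it, with limma adjusted p of 0.0508 to 0.132, while the log2 fold change stayed between -1.58 and -1.36. In the authors' deposited table the log2 fold change of Hoxb5 is -1.72 with a false discovery rate of 0.0534, and no Hox gene is under 0.05.

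The neighbours of Hoxb5 in the cluster were not lower in the same way. Hoxb4 was 3.21, 4.33, 3.68, 2.08 and 2.73 TPM in Cre-negative libraries and 1.10, 3.52 and 11.3 TPM at the lowest, median and highest Cre-positive library. Hoxb6 was 2.98, 3.22, 4.04, 2.2 and 3.06 TPM and, in the same order, 2.11, 3.75 and 6.83 TPM. Both genes had overlapping groups. The difference between Hoxb5 and its neighbours was not itself tested. Hoxb5 shares 100 of its 2786 exonic bases with the antisense gene Hoxb5os in GENCODE, and the sources used here do not say whether reads were counted by strand.

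**Figure D3:**
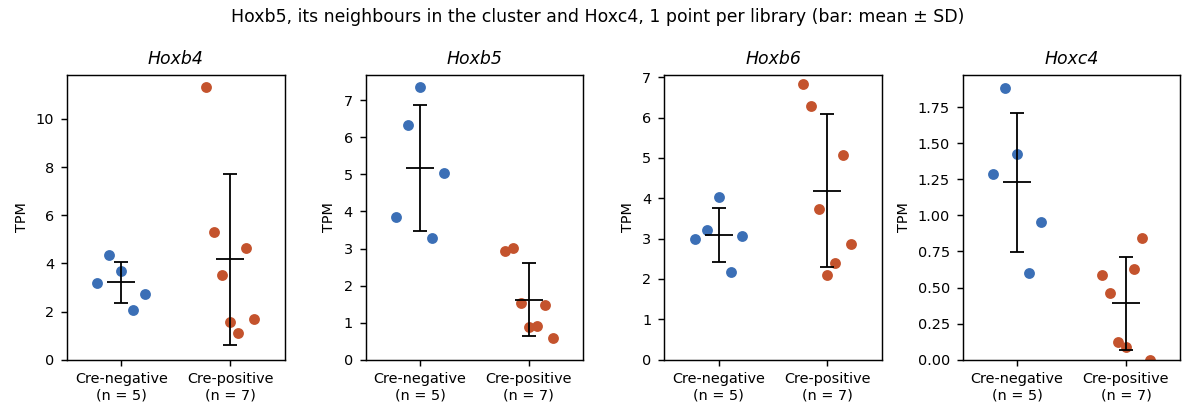
Points are TPM per library of Hoxb4, Hoxb5, Hoxb6 and Hoxc4, with the group mean and SD as bars. The 7 Cre-positive points of Hoxb5 lie at 0.593 to 3.02 TPM, under the lowest Cre-negative point at 3.27, and in the other 3 genes the groups overlap.

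Hoxc4 (chr15:103018934-103036852, plus strand), the one Hoxc gene tested, had the next largest difference. It was 1.29, 1.88, 1.42, 0.60 and 0.957 TPM in Cre-negative libraries, and 0, 0.46 and 0.844 TPM at the lowest, median and highest Cre-positive library. The groups overlapped, since Cre-positive 6 and 5 lay above Cre-negative 4. The log2 fold change was -1.0 with a 95% interval of -1.61 to -0.39, and the limma adjusted p was 0.126. These levels rest on 147 reads in Cre-negative and 64 in Cre-positive libraries.

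Neuronal markers were lower in the same group as Hoxb5. Ret, the receptor of the growth factor GDNF on enteric neurons, was 3.29 ± 0.992 TPM in Cre-negative and 0.694 ± 0.204 TPM in Cre-positive libraries. It passed, with a limma log2 fold change of -1.65. The part of neuron loss in the Hoxb5 and Hoxc4 values was not tested.

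The paralogue 13 genes, the most posterior of each cluster, gave no difference between the groups that passed. Hoxb13 (chr11:96194316-96197447) was the highest Hox gene in every library, at 557, 428, 471, 581 and 519 TPM in Cre-negative libraries 1 to 5. In Cre-positive libraries its lowest, median and highest values were 337, 500.4 and 587 TPM. The groups overlapped and Cre-positive 1 was the lowest library. Its log2 fold change was -0.09 with a 95% interval of -0.41 to 0.23 (limma adjusted p = 0.903).

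Hoxa13 (chr6:52257694-52260880, minus strand), known for its part in hindgut and limb formation, was 31.0, 19.0, 20.8, 35.0 and 33.4 TPM in Cre-negative libraries. In Cre-positive libraries it was 9.33, 36.1 and 50.3 TPM at the lowest, median and highest. The Cre-positive group enclosed the Cre-negative one, with Cre-positive 1, 6 and 2 low and Cre-positive 4, 7 and 5 high. Its log2 fold change was -0.05 with a 95% interval of -0.94 to 0.83 (limma adjusted p = 0.986), and its sign turned when Cre-positive 1 was left out (0.18).

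Hoxd13 (chr2:74668310-74671599), which acts with Hoxa13 in the hindgut and the digits, varied most of the 29 genes within the groups. It was 115, 25.3, 74.0, 12 and 17.7 TPM in Cre-negative libraries, and 12.1, 80.8 and 109.7 TPM at the lowest, median and highest Cre-positive library. Low and high libraries occurred in both groups. The highest value was 9.60 times the lowest, against 1.74 times for Hoxb13. The log2 fold change was 0.68 with a 95% interval of -0.68 to 2.05 (limma adjusted p = 0.772), an interval that takes in differences past 2 on the log2 scale. Hoxc13, the fourth paralogue, was at 0 in 7 libraries and at no more than 0.0654 TPM in the others.

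**Figure D4:**
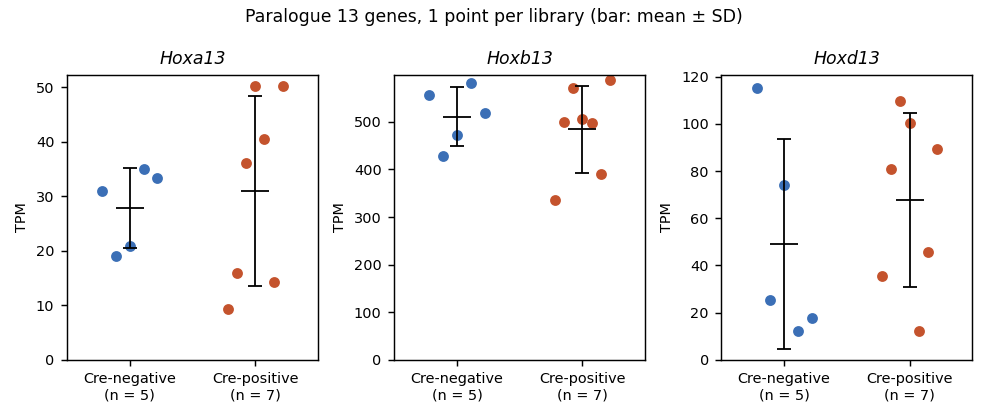
Points are TPM per library of Hoxa13, Hoxb13 and Hoxd13, each on its own linear axis from 0, with the group mean and SD as bars. Groups overlap in all 3 genes, and Hoxd13 spans 12 to 115 TPM within the Cre-negative group alone.

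Most posterior Hoxd genes were low in the same libraries. Cre-negative 4, Cre-negative 5 and Cre-positive 5 were the 3 lowest of the 12 libraries for Hoxd9, Hoxd10, Hoxd11 and Hoxd13, and for no other tested Hox gene. Hoxd10 was 22.1, 7.51, 16.8, 3.52 and 4.48 TPM in Cre-negative libraries and 3.44, 16.4 and 21.9 TPM at the lowest, median and highest Cre-positive library. Hoxd11 was 15.6, 5.61, 8.59, 4.09 and 4.57 TPM, and 4.68, 12 and 19.3 TPM in the same order. For both genes the groups overlapped and Cre-negative 1 and Cre-positive 3 were among the 3 highest libraries. Hoxd9 ranged from 0.950 to 7.17 TPM.

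Hoxd12, the least abundant of this posterior block, was 3.22, 1.22, 2.18, 1.64 and 1.38 TPM in Cre-negative and 0.564, 1.69 and 2.57 TPM at the lowest, median and highest Cre-positive library. The groups overlapped, with Cre-positive 1, Cre-positive 5 and Cre-negative 2 the lowest, so Hoxd12 departed from its neighbours in Cre-negative 4. Hoxc12, its only paralogue, was at 0 in 11 libraries. The log2 fold changes of Hoxd10, Hoxd11 and Hoxd12 were 0.44 (95% interval -0.69 to 1.57), 0.65 (-0.12 to 1.42) and -0.19 (-0.79 to 0.42), and none passed. Reads of Hoxd10 and Hoxd11 can be shared with the overlapping model Gm28309, which covers 104 and 455 of their exonic bases.

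**Figure D5:**
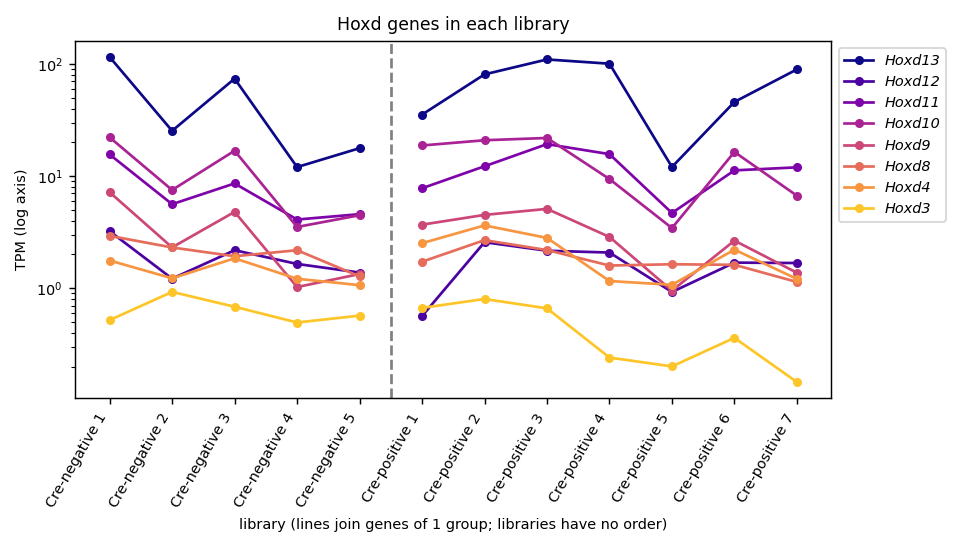
Each line is a Hoxd gene, with TPM per library on a log axis and the groups parted by a dashed line. Hoxd13, Hoxd11, Hoxd10 and Hoxd9 dip together in Cre-negative 4 and 5 and in Cre-positive 5, where Hoxd13 is 12, 17.7 and 12.1 TPM.

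Relations of Hoxd13 to 7 other genes were computed over the 12 libraries on log2(TPM + 0.5), centred within the groups, with 100000 permutations within the groups and two-sided p adjusted over the 7. With Hoxd12, Pearson r was 0.77 (permutation p = 0.00616, adjusted p = 0.0376) and Spearman rho 0.81 (permutation p = 0.00280, adjusted p = 0.0196). With Hoxd10, r was 0.76 (permutation p = 0.0107, adjusted p = 0.0376) and rho 0.81 (permutation p = 0.00855, adjusted p = 0.0299). Without the 2 libraries farthest from the median of Hoxd13, Cre-negative 4 and Cre-positive 5, Hoxd12 gave r = 0.82 (adjusted permutation p = 0.0276) and rho 0.78, whose adjusted permutation p of 0.135 no longer passed. Hoxd10 gave r = 0.51 (permutation p = 0.224, adjusted p = 0.314) and rho 0.67 (adjusted permutation p = 0.248), so the call of that relation rests on those libraries.

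Hoxd13 did not follow its paralogues on other chromosomes closely enough to pass. The r was 0.07 with Hoxa13 (rho 0.07, permutation p = 0.845 and 0.823, adjusted p = 0.845 and 0.823) and 0.24 with Hoxb13 (rho 0.31, permutation p = 0.464 and 0.323, adjusted p = 0.684 and 0.559). Without the 2 farthest libraries r was 0.47 and 0.62, with adjusted permutation p of 0.207 and 0.0822. With the anterior neighbour Hoxd4, r was 0.43 (rho 0.41, permutation p = 0.151 and 0.147, adjusted p = 0.352 and 0.343), and 0.18 without the 2 libraries. Hoxb6 gave r = 0.17 (rho 0.10, permutation p = 0.608 and 0.756, adjusted p = 0.710 and 0.823), which turned to -0.34 without them. The smooth muscle gene Myh11 gave r = 0.21 (rho 0.27, permutation p = 0.489 and 0.399, adjusted p = 0.684 and 0.559), and 0.22 without them. All 7 relations share libraries and their depths.

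The sum of the fibroblast markers was also low in the libraries with low Hoxd9, Hoxd10, Hoxd11 and Hoxd13, and in some others. The summed TPM of the 7 markers was 559, 491 and 394 in Cre-negative 4, Cre-negative 5 and Cre-positive 5, but it was 519 in Cre-positive 7 and 534 in Cre-positive 4, where Hoxd13 was 89.5 and 101 TPM. The other 7 libraries lay at 595 to 1107. Single markers were mixed. Col3a1 had its lowest values in Cre-negative 4, Cre-negative 5 and Cre-positive 5, at 166, 157 and 136 TPM. Cre-negative 3 and Cre-positive 4 lay just above, at 167 and 169 TPM, with Hoxd13 at 74.0 and 101 TPM. Pdgfra had its highest value in Cre-positive 5, at 11.8 TPM. Col1a2 was 41.0 and 41.8 TPM in Cre-negative 4 and 5, above 37.3 and 37.5 TPM in Cre-negative 2 and 3. The part of fibroblast content in the Hoxd values was not tested.

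A second set of libraries stood together for other genes, most of them with low paralogue numbers. Cre-positive 4, 5 and 7 were the 3 lowest libraries for Hoxa2, Hoxa5, Hoxb3, Hoxb4, Hoxb5, Hoxb9 and Hoxd3, and the 3 highest for Hoxa13. These 3 had the highest summed epithelial markers, 20766, 19433 and 20073 TPM against 12324 to 18429 in the other 9, and the lowest mitochondrial shares, 4.15%, 4.5% and 3.56%. An epithelial score, the mean of the 10 markers on the log2 scale after centring each, was also highest there, at 0.401, 0.425 and 0.415. Not every marker followed, as Epcam was 1435, 1489 and 1562 TPM in Cre-positive 4, 5 and 7 and 1646 TPM in Cre-negative 1. The part of epithelial content in the Hox levels was not tested directly. The score was unevenly spread over the groups, at -0.327 to 0.0094 in Cre-negative and -0.344 to 0.425 in Cre-positive libraries. A fit that holds the score therefore cannot fully part it from the group. With this epithelial score as a covariate, chosen with earlier results known, 8 of the 29 members passed in limma, 6 as higher and 2 as lower in Cre-positive libraries. Of all 16164 genes tested 3146 passed there, 1320 as higher and 1826 as lower. Whether the members differ from that background was not tested. The 2 lower ones were Hoxb5 at -0.96 and Hoxa13 at -0.96, and Hoxd10 was the largest of the higher ones at 1.38.

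Hoxa5, the highest Hoxa gene by its mean over the 12 libraries (45.9 TPM, against 39.8 TPM for Hoxa10, and 38.9 against 39.7 TPM without Cre-positive 1), is known from the mesenchyme of lung and gut. It was 44.6, 36.2, 55.3, 36.8 and 40.7 TPM in Cre-negative libraries. In Cre-positive libraries it was 22.2, 36.0 and 123 TPM at the lowest, median and highest. The Cre-positive group enclosed the Cre-negative one, and the highest value was that of Cre-positive 1. This library was the highest of the 12 for Hoxa2, Hoxa4, Hoxa5, Hoxa7, Hoxb4 and Hoxb6, and the lowest for genes that include Hoxa3, Hoxa6, Hoxa9, Hoxa11, Hoxa13, Hoxb13 and Hoxd12. It thus held more RNA of several anterior genes and less of several posterior genes than the other 11, beside its low depth and high mitochondrial share, whose part was not tested.

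The remaining tested members also overlapped between the groups. Hoxa10 ranged from 33.6 to 48.1 TPM over all 12 libraries, with a within-group SD of 0.15 on the log2 scale, the smallest among the 29. Hoxb9 ranged from 34.5 to 81.7 TPM, Hoxa7 from 26.3 to 74.7, Hoxa9 from 7.61 to 32.7, Hoxa11 from 9.66 to 36.4, Hoxa6 from 7.75 to 31.1 and Hoxa3 from 5.22 to 14.4. Hoxa2 lay at 6.48 to 26.8 TPM. Hoxb2, Hoxb3, Hoxb7, Hoxb8, Hoxa4, Hoxd3, Hoxd4 and Hoxd8 lay between 0.145 and 7.25 TPM. The median within-group SD was 0.50 for the 29 genes and 0.32 for all genes tested, and it was 1.23 for Hoxd13, 1.01 for Hoxd10 and 0.84 for Hoxd9.

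Some of these levels are uncertain because gene models overlap. Hoxa11os, the antisense RNA of Hoxa11, was listed at 146 to 539 TPM, above the 9.66 to 36.4 TPM of Hoxa11, and shares 800 of the 2287 exonic bases of Hoxa11. Hoxd3 and Hoxd4 share exons on the same strand, and Hoxa3 overlaps several antisense models with 1529 bases. The values of these genes may include reads of their partners.

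The clusters also hold microRNA genes. miR-196 is known to act on Hox transcripts, and its mature forms are shown with miR-10a, whose gene lies near Hoxb4, 5′ to 3′ from RefSeq with the seed (bases 2 to 8) in capitals.
mmu-miR-196a-5p: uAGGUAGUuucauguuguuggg
mmu-miR-196b-5p: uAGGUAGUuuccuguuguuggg
mmu-miR-10a-5p: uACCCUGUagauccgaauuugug

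The pair of miR-196 forms share a seed and differ by A12C, counted from the 5′ end with miR-196a-5p first. The hairpin gene Mir196a-1, between Hoxb13 and Hoxb9, was listed at 236, 152, 224, 208 and 240.3 TPM in Cre-negative libraries and at 27.8, 210.2 and 287 TPM at the lowest, median and highest Cre-positive library. Cre-positive 1 was the lowest, with 22 reads, and the groups overlapped. Mir196b, which overlaps Hoxa9, was listed at 15.2 to 66.5 TPM. Such reads in a polyadenylated library come from longer transcripts across the hairpin and do not measure the mature microRNA. Mir10a was listed at 0 to 5.43 TPM, and Mir10b and Mir196a-2 at 0 throughout.

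The complement of the miR-196 seed was found after the stop codon in annotated transcripts of 9 of the 39 Hox genes, with 4 places in Hoxa7. Only places with the whole seed complement were scored, so longer matches with a changed seed are not counted. The best of the scored places matched at 14 of 22 bases opposite miR-196a-5p. They include Hoxa7 at chr6:52215210-52215231 (minus strand) and Hoxb7 at chr11:96289784-96289805 (plus strand), shown with the complement of the seed in capitals.
Hoxa7: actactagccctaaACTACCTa
Hoxb7: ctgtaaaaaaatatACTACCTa

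These matches describe the letters and were not measured as binding sites. Hoxa7 was at 37.7 ± 8.46 TPM in Cre-negative and 44.7 ± 15.3 TPM in Cre-positive libraries, and Hoxb7 at 2.13 ± 0.381 and 1.81 ± 0.306 TPM, without a difference that passed.

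No partner or chromatin regulator of Hox genes passed. Of the 9 TALE cofactors (Pbx, Meis and Pknox genes, whose proteins bind DNA with Hox proteins), 9 were tested and 0 passed, with a median log2 fold change of 0.05. Pbx2, the most abundant, was 29.1 to 50.1 TPM over all libraries. Pbx3 was 13.3 to 17.9 TPM in Cre-negative and 2.59 to 14.2 TPM in Cre-positive libraries, and Meis3 12.2 to 17.7 and 4.34 to 16.7 TPM. Of 22 chromatin regulators of Hox clusters, from the Polycomb and trithorax groups, 22 were tested and 0 passed, with a median of 0.08. Eed and Ezh1, of the Polycomb repressive complex that marks silent Hox genes, were 29.3 to 53.1 and 18.0 to 38.3 TPM. Kmt2a, a trithorax-group methyltransferase that keeps Hox genes active, was 8.55 to 10.5 TPM in Cre-negative and 10.7 to 16 TPM in Cre-positive libraries, without overlap and without passing (limma adjusted p = 0.182).

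Among 16 genes of retinoic acid, a signal that switches on anterior Hox genes in embryos, 13 were tested, 1 passed as lower and 0 as higher, with a median of 0.24. Of all 16164 genes tested, 1.43% passed and 2.88% had groups without overlap, so 1 call in 13 is no result about the list. The one that passed was Crabp1, a retinoic acid binding protein of the cytoplasm, at 0.782, 2.82, 1.44, 2.58 and 0.891 TPM in Cre-negative libraries and 0, 0.118 and 0.696 TPM at the lowest, median and highest Cre-positive library. Its groups did not overlap, and its log2 fold change was -1.50 (limma adjusted p = 0.0204). Without Cre-negative 2, 3 or 4 it no longer passed (limma adjusted p of 0.0752 to 0.0972). Rdh10, an enzyme of retinoic acid synthesis, was 19.8 to 22.9 and 23.4 to 36.8 TPM, also without overlap and without passing (limma adjusted p = 0.177). Retinoic acid receptors were present throughout, with Rarg at 6.37 to 17.8 and Rarb at 1.63 to 2.80 TPM.

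The noncoding and Evx genes of the clusters gave 7 table entries out of 14 on the list, of which 5 were tested and 0 passed. Evx2, next to Hoxd13, ranged from 0.361 to 3.36 TPM and was highest in Cre-positive 4 and 3, where Hoxd13 was 101 and 109.7 TPM, but it was 1.14 TPM in Cre-negative 1, where Hoxd13 was highest.

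Markers of gut position other than Hox genes were also compared. Of 14 ParaHox and gut region factors 7 were tested and 0 passed, with a median of -0.24. Cdx1 and Cdx2, ParaHox factors of intestinal epithelium, were 262 to 421 and 37.6 to 91.0 TPM. Gata4, a factor of the proximal small intestine, was at most 0.343 TPM, and the small intestinal genes Apoa4 and Defa24 were at 0 in all 12 libraries. Other genes of the same list of 8 were present, with Fabp2 at 28.4 to 221 TPM, Fabp6 at 14.4 to 23.0 TPM and Lyz1 at 0.937 to 14 TPM. Of that list 4 were tested and 0 passed, with a median of -0.65. Insl5, a hormone of enteroendocrine cells of the distal colon, was 297 to 528 TPM in Cre-negative and 200.2 to 522 TPM in Cre-positive libraries. Of the 4 distal markers measured, 0 passed, with a median of 0.42, and Scnn1b, a subunit of the epithelial sodium channel, was closest at 3.86 to 5.78 and 4.83 to 15.2 TPM (limma adjusted p = 0.0523).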

How the data were processed

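Polyadenylated RNA of 12 mouse colon libraries (5 Cre-negative, 7 Cre-positive) was sequenced with a strand-preserving kit, per the labels. Per the submitters' processing notes the tools were bcl2fastq 2.17, HISAT and featureCounts on mm10. The authors deposited TPM per gene, and an edgeR comparison per the file headers, with log2 fold changes and log2 CPM, an F score, and p-values with false discovery rates. The deposited table is quoted only by name. Strand settings are not given in the sources used here.

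The deposited values are TPM, so a linear model with a mean-variance trend (limma 3.58.1, R 4.3.3) was run on log2(TPM + 0.5), which understates changes of low genes, for 16164 genes with at least 0.5 TPM in 5 libraries, with Benjamini-Hochberg adjustment over all of them. A count test was not the main result. Whole reads were recovered for 22840 of 22842 genes above 0 (within 0.05 read) to state depth, and voom on them, which passed 264 genes, was an alternative. Correlations and figures used Python 3.11.15 with SciPy 1.17.1 and matplotlib 3.10.9. The fit was also run on simulated reads with known changes and a spread set alike for every gene. That simulation had no outlying library and no differences in tissue content, so it does not show how the fit handles them. Coordinates are GENCODE vM21 (mm10).

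The members and gene lists were chosen with earlier results of these data known. Values per library (for Cre-positive the lowest, median and highest) are given for Hox genes that pass or do not overlap, for paralogues 12 and 13 and for the highest member of each cluster. Hoxb4, Hoxb6, Hoxd10, Hoxd11, the microRNA genes and some list members were added after their values were seen. Some genes of the lists are not reported here by name. Alternatives changed the added constant, minimum, scaling, variance model, covariates and libraries.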

Additional observations from a re-analysis of the deposited data

Results flagged for a closer look

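Within each group, the highest and lowest library of each of the 32 Hox genes that reached 0.5 TPM in any library were compared with their neighbours, which made 64 groups. Hoxb1, Hoxc6 and Hoxc8 reached that level only in Cre-positive 1, so a high value there let them in. A library counted as far from the others when its gap to the nearest one, as a share of the range of the group, was above the 95% critical value of Dixon. There were 7 such values, of which 6 were in Cre-positive 1. For the 29 tested genes alone there were 3 in 58 groups, where chance flags about 1 in 20, and that rate does not apply to the 3 genes let in by Cre-positive 1. In that library Hoxa5 was 123 TPM (others in the group 22.2 to 62.3), Hoxb4 11.3 TPM (1.10 to 5.30), Hoxb1 1.12 TPM (0 to 0.0671), Hoxc6 0.972 TPM (0.0502 to 0.157) and Hoxc8 1.36 TPM (0.0350 to 0.265), all the highest. Hoxa9 was the lowest there at 7.61 TPM (21.4 to 31.8). The seventh was Hoxc6 in Cre-negative 1, at 0.291 TPM against 0 to 0.0518 in the rest of its group. These 2 libraries are the shallowest of their groups, at 13.4 and 15.2 M recovered reads.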

How the results depend on the processing

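Hoxb5 stayed lower under all 27 alternatives (log2 fold change -1.97 to -0.96) and passed in 18. With 1 library left out, the count of Hox genes passing as lower was 0 to 1. It was 2 both under library weights and with mitochondrial share in the model, where Hoxc4 was added, and 2 with the epithelial score, where 6 passed as higher. Apart from the replicate block and single left-out libraries, the other alternatives kept 1 lower and 0 higher, voom included. Same-numbered libraries did not deviate together in every case (r = 0.01, 0.36, -0.27, 0.20 and 0.16 for numbers 1 to 5), so the numbers are not treated as pairs. With the number as a replicate block, 0 Hox genes passed (Hoxb5 at -1.34, limma adjusted p = 0.135) and 84 genes in all, against 231. The count of all genes passing also changed to 3146 with the epithelial score, 1092 with weights, 716 with the mitochondrial share, 349 with no minimum and 80 to 329 with 1 library left out. Higher genes made up 654 of the 1092 and 1320 of the 3146.

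The sign of Hoxa13 turned with the smooth muscle score (0.015) and with weights (0.44), and ranged from -0.21 to 0.18 with 1 library left out. That of Hoxb13 turned with weights (0.021). After the data were seen, the shallowest library of each group was left out, which gave 0.23 for Hoxa13, 0.022 for Hoxb13 and 0.14 for Hoxd12. The r of Hoxd13 with Hoxa13 was -0.047 without Cre-positive 1, that with Hoxd12 was 0.67 without centring (adjusted permutation p = 0.0591), and without the 2 farthest libraries that with Hoxd10 was 0.51 and that with Hoxb6 -0.34. The causes were not tested. Crabp1 did not pass with the block, and was not tested with a minimum of 1 TPM or without the shallowest libraries, where it is under the minimum. Genes near 0.5 TPM, such as Hoxc4, rest on few reads.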
